A study of Mus musculus with 4 samples.

Results

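A set of 10 genes that mark cytotoxic lymphocytes and T cells were followed in bone marrow-derived macrophages (BMDMs): the granule genes Gzma, Gzmb, Prf1 and Nkg7, the surface receptors Klrd1, Il2rb, Cd3e and Cd3g, and the transcription factors Tbx21 and Eomes. They were chosen by gene symbol, and all 10 were among the 16375 genes listed in the expression table. The macrophages were grown from mouse bone marrow cells with M-CSF. WT cells came from C57BL/6 mice, and LNCKO cells came from mice on the C57BL/6J background in which CRISPR-Cas9 had cut out the long noncoding RNA lncLy6c. Each genotype was left without butyrate (control) or was given 500 µM butyrate, a short-chain fatty acid made by gut bacteria, for 24 h. This gave 4 groups, a control and a butyrate group for WT and likewise for LNCKO, with 1 RNA-seq library each. No test between groups was therefore possible, every difference is one between libraries, and no p-value is given. The comparisons address what loss of lncLy6c and exposure to butyrate do to macrophage gene expression.

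These genes belong to the killing programme of natural killer (NK) cells and CD8+ T cells. Perforin, encoded by Prf1, forms pores in the membrane of a target cell, and granzymes such as those encoded by Gzma and Gzmb are proteases that enter the target and start cell death. The T-box factors T-bet (Tbx21) and Eomesodermin (Eomes) drive this programme, Il2rb encodes the beta chain of the receptors for IL-2 and IL-15, Klrd1 encodes CD94, and Cd3e and Cd3g encode subunits of the T cell receptor complex. They are not typical genes of macrophages. In bulk RNA, a change in the number of cells of a type and a change in RNA per cell cannot be told apart.

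All values are FPKM, fragments per kilobase of gene scaled to the library total, which the study computed on the whole gene span, introns included. Dividing out span and library total gave whole numbers of fragments (within 0.05) for 16112 of the 16375 genes and for every member. Totals of the WT libraries were 56392028 (control) and 59195293 (butyrate) fragments, and those of the LNCKO libraries 53363944 and 65521713. Values below follow that order, WT before LNCKO and control before butyrate. Ratios are plain FPKM ratios with a 95% exact conditional (Clopper-Pearson) counting interval. Small fragment numbers clumped: over the 4 libraries, 223 gene values stood at 1 fragment, 563 at 3, 1059 at 4 and 438 at 5. Fragments may therefore not be independent molecules, the reason was not tested, and a wider interval that counts 4 fragments as 1 unit is given where it matters. Neither interval covers variation between cultures. Among genes with as many fragments as the members, the first interval left out a ratio of 1 for 42.9% to 54.5% of genes and the wider one for 10.9% to 23.0%, depending on the comparison.

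Properties of the 4 libraries set limits on the reading. Macrophage identity was plain, with Csf1r, the receptor for M-CSF, at an FPKM of 38.3 to 46.5 in the 4 libraries. The Y-linked genes Ddx3y, Eif2s3y, Kdm5d and Uty summed to 3.60 and 2.23 CPM (fragments per 1000000 in the library) in the WT control and butyrate libraries and to 288 and 308 in the LNCKO ones, so genotype and donor sex cannot be told apart in any comparison of LNCKO with WT. The lncLy6c transcript was not a listed gene, so its loss was not checked here.

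The promoters of the 4 granule genes are shown because these genes hold matches to the core letters bound by the Runx family, to which the study's transcription factor Runx3 belongs. Promoters of 8 of the 10 members matched RefSeq entries on GRCm38.p6, each 300 bases long with 250 before the start site and 50 after it. The search covered the Runx core TGTGGT and the T-box core GGTGTGA on both strands, and the printed sequences run 5′ to 3′ on the strand of the gene with matches in capitals. The regions are chr13:113100932-113101231 (minus strand) for Gzma, chr14:56262285-56262584 (minus) for Gzmb, chr10:61297586-61297885 (plus) for Prf1 and chr7:43436888-43437187 (plus) for Nkg7.
Gzma: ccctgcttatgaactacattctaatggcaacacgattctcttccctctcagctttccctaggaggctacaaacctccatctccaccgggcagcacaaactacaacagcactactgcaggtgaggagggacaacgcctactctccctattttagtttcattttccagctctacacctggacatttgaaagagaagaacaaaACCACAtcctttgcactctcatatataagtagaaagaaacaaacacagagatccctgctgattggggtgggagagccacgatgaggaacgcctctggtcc
Gzmb: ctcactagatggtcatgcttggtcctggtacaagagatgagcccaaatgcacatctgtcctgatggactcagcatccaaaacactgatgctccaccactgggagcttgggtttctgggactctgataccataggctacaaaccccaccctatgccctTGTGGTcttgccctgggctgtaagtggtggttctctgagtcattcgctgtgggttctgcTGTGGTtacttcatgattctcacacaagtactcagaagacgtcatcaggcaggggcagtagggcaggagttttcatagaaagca
Prf1: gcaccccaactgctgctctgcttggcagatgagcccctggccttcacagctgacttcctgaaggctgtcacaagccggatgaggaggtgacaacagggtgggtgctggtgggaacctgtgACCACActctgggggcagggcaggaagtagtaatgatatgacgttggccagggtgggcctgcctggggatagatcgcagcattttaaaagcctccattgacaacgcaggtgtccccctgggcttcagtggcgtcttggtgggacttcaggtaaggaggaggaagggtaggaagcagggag
Nkg7: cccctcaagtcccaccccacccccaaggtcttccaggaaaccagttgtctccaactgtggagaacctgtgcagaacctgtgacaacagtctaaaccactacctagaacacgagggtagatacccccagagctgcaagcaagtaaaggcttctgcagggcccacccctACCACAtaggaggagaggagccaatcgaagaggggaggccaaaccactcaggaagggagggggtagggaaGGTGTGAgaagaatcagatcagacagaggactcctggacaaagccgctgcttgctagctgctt

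The Runx core was found in 4 of the 8 promoters, and in 16.8% of the 32851 promoters of the same length. Gzmb held it at 93 and 34 bases upstream of the start on its own strand, and Gzma, Prf1 and Nkg7 held its reverse complement ACCACA at 50, 130 and 83 bases upstream. The T-box core was found only in Nkg7 among the 8, at 13 bases upstream, and in 3.98% of all promoters. No match to either core was found in the windows of Cd3e, Cd3g, Tbx21 and Eomes. Runx3 itself was listed at FPKM of 2.85 and 5.73 in the WT libraries and 0.849 and 1.16 in the LNCKO ones, control first, without whole fragment numbers. A match is a run of letters and was not tested as a binding site.

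The members differed widely in level. For levels between genes the fragments were set against exon length, which assumes that they came from exons. On that scale Nkg7 was the highest member, with a mean FPKM of 16.5 over the 4 libraries (13.6 to 20.1), followed by Klrd1 at 9.38 (8.67 to 10.2). Gzmb averaged 3.40 (1.54 to 7.13) and Il2rb 1.77 (1.20 to 2.65), and the ranges of this pair overlapped. The other 6 members averaged 0.462 for Cd3g, 0.358 for Gzma, 0.332 for Prf1, 0.286 for Cd3e, 0.206 for Tbx21 and 0.128 for Eomes. Their ranges overlapped from each to the next in that order, whereas those of Nkg7, Klrd1 and Gzmb did not overlap, nor did those of Il2rb and Cd3g. From here on, FPKM is on the gene span as deposited.

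**Figure D1:**
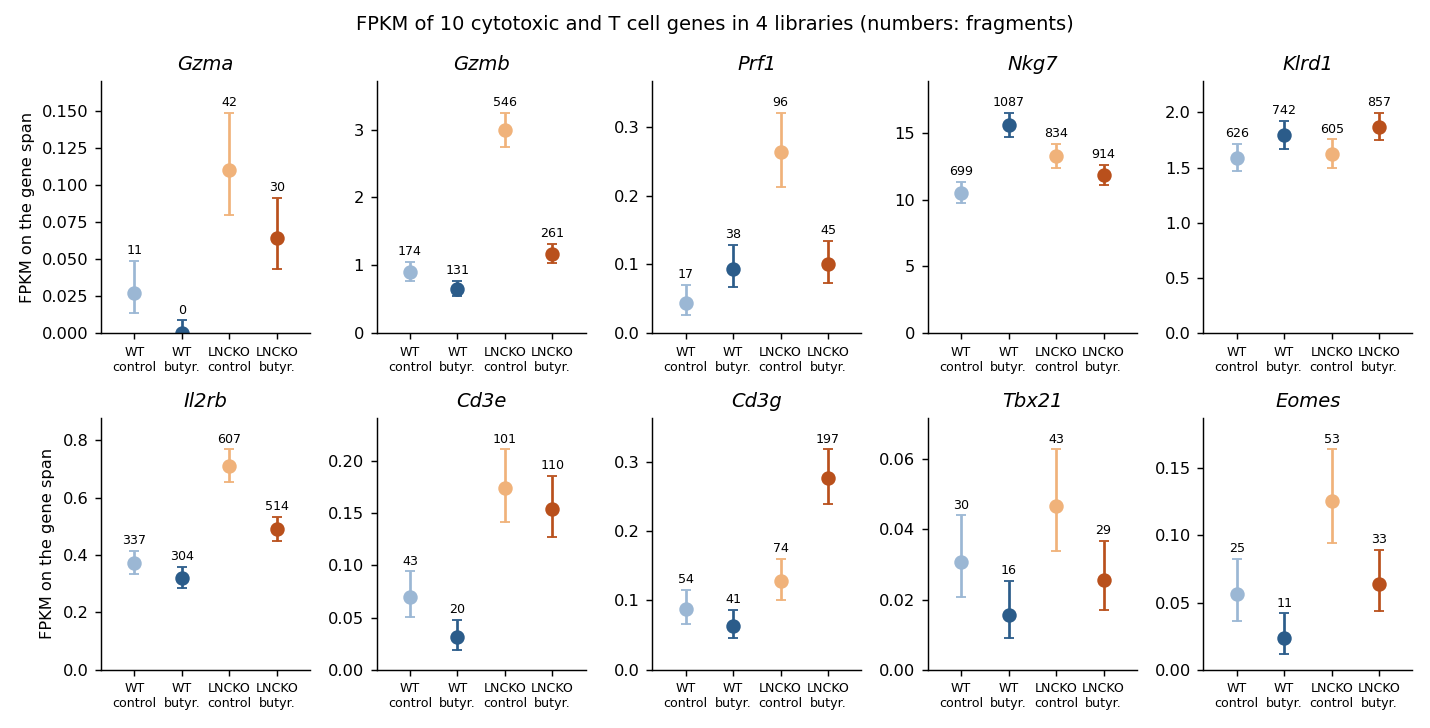
FPKM on the gene span (vertical axes, linear, each from 0) of the 10 members in the 4 libraries. Points are single libraries, bars are 95% exact Poisson intervals that cover counting error only, and the number above each point is its fragment count. Gzmb, Prf1, Gzma, Il2rb, Tbx21 Cd3e and Eomes were highest in LNCKO control, Nkg7 in WT butyrate, and Cd3g and Klrd1 in LNCKO butyrate.

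The granule genes held the largest ratios between the control libraries. Gzmb (chr14:56258838-56262260 on GRCm38, minus strand) had 174 and 131 fragments in the WT libraries and 546 and 261 in the LNCKO ones, control first, or FPKM of 0.901, 0.647, 2.99 and 1.16. Both LNCKO libraries stood above both WT libraries, and in each genotype the butyrate library was the lower. Prf1 (chr10:61297833-61304680, plus strand) had 17, 38, 96 and 45 fragments in the same order, at FPKM of 0.0440, 0.0937, 0.263 and 0.1003. LNCKO control stood apart, and the butyrate libraries of the genotypes lay close together, LNCKO above WT by 0.1003 to 0.0937. Gzma (chr13:113093825-113100981, minus strand) had 11, 0, 42 and 30 fragments, at FPKM of 0.0273, 0, 0.110 and 0.0640. It was not detected in WT butyrate, where bounds use a floor of 3 fragments and the exact Poisson interval reaches an FPKM of 0.00871. Such a bound takes the fragments of the other library as exact, so it is not a counting limit.

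Nkg7, which encodes a membrane protein of cytotoxic granules, behaved unlike the other granule genes. It lies at chr7:43437073-43438249 (plus strand) and had 699, 1087, 834 and 914 fragments in that order of libraries, at FPKM of 10.5, 15.6, 13.3 and 11.9. The WT libraries enclosed both LNCKO libraries, so the genotypes overlapped.

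The receptors split by level and by pattern. Klrd1 (chr6:129591782-129598775, plus strand), whose product pairs with NKG2 receptors, had 626, 742, 605 and 857 fragments in the same order, at FPKM of 1.59, 1.79, 1.62 and 1.87. It was the steadiest member, and its genotypes overlapped. Il2rb (chr15:78479256-78495271, minus strand) had 337, 304, 607 and 514 fragments, at FPKM of 0.373, 0.321, 0.710 and 0.490, with both LNCKO libraries above both WT ones.

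Cd3e (chr9:44998740-45009627, minus strand) had 43, 20, 101 and 110 fragments, at FPKM of 0.0700, 0.0310, 0.174 and 0.154. Its exons overlap Gm48719 on the opposite strand, and how the study's counting treated strand is not given in the sources used here. Cd3g (chr9:44969572-44980431, minus strand) had 54, 41, 74 and 197 fragments, at FPKM of 0.0882, 0.0638, 0.128 and 0.277. Both CD3 genes were higher in both LNCKO libraries than in both WT ones. They lie 18308 bases apart, with Cd3d between them, 1354 bases from Cd3g and 11400 from Cd3e.

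The transcription factors were scarce. Tbx21 (chr11:97098071-97115331, minus strand) had 30, 16, 43 and 29 fragments, at FPKM of 0.0308, 0.0157, 0.0467 and 0.0256, and its genotypes overlapped. Eomes (chr9:118478212-118486132, plus strand, with Gm33460 overlapping its exons on the opposite strand) had 25, 11, 53 and 33 fragments, at FPKM of 0.0560, 0.0235, 0.125 and 0.0636. Its LNCKO libraries both lay above its WT libraries, by 33 fragments against 25 at the closest. Each of these factors had fewer fragments in the butyrate library of either genotype.

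Both LNCKO libraries lay above both WT libraries for 7 of the 10 members, Gzma, Gzmb, Prf1, Il2rb, Cd3e, Cd3g and Eomes. Of all genes with at least 20 fragments over the 4 libraries, 21.6% did so. Nkg7, Klrd1 and Tbx21 were the members whose genotypes overlapped.

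Without butyrate, all 10 members were higher in LNCKO than in WT, where 54.5% of the 13199 genes with at least 20 fragments over both libraries were higher. Of the 10, 5 were at least 2-fold higher, against 2.61% of all genes and 3.86% of the 3991 genes in the members' range of fragments, and 0 were at least 2-fold lower, against 3.66%. The median log2 ratio of the members was 1.05, and that of all genes was 0.017. Prf1 was 5.97-fold higher (3.54 to 10.7), Gzma 4.03-fold (2.04 to 8.69) and Gzmb 3.32-fold (2.79 to 3.96). Cd3e was 2.48-fold higher (1.72 to 3.63) and Eomes 2.24-fold (1.37 to 3.76). With 4 fragments as 1 unit, the interval of Eomes reached from 0.808 to 7.01 and so held 1, while those of Prf1, Gzma, Gzmb and Cd3e stayed above 1, Gzma by the least (1.01 to 24.9).

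Ratios of the other 5 members without butyrate were smaller. Il2rb was 1.90-fold higher in LNCKO (1.66 to 2.18), and its wider interval, 1.45 to 2.51, also lay above 1. Tbx21 stood at 1.51 (0.928 to 2.50) and Cd3g at 1.45 (1.01 to 2.10), neither clear of 1 with the wider interval. Nkg7 stood at 1.26 (1.14 to 1.40) and Klrd1 at 1.02 (0.912 to 1.14). These last 2 are the members with the most fragments.

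**Figure D2:**
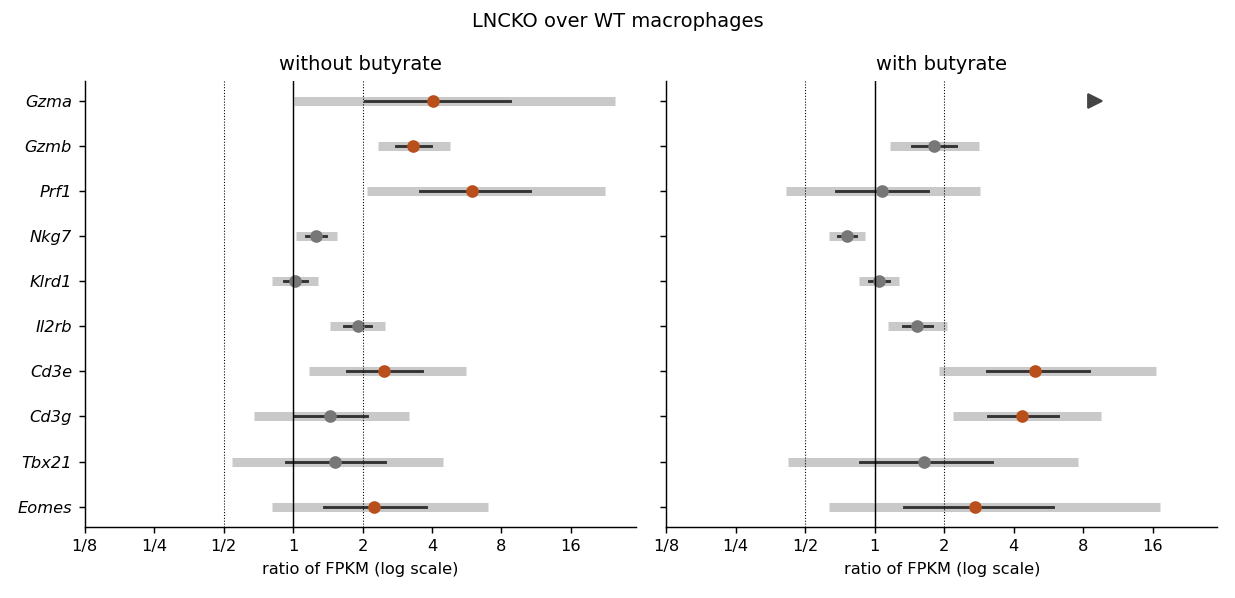
Ratio of LNCKO to WT FPKM (horizontal axis, log scale) for each member without and with butyrate. Dark lines are 95% counting intervals, grey bars count 4 fragments as 1 unit, dotted lines mark 2-fold, and the arrow is the lower bound for Gzma, which had 0 fragments in WT butyrate. Prf1 led without butyrate at 5.97 and stood at 1.07 with it, whereas Cd3g went from 1.45 to 4.34.

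With butyrate, 9 of the 10 members were higher in LNCKO than in WT, against 58.0% of 13403 genes. Of these, 4 were at least 2-fold higher, against 3.26% of all genes and 6.19% of the genes in the members' range, and 0 were at least 2-fold lower, against 4.11%. Their median log2 ratio was 0.78, beside 0.046 over all genes. Cd3e was 4.97-fold higher (3.07 to 8.45), Cd3g 4.34-fold (3.09 to 6.24) and Eomes 2.71-fold (1.34 to 5.94), the last with a wider interval of 0.634 to 17.3. Gzma stood at 9.03-fold with WT butyrate set at the floor of 3 fragments, and at 2.26-fold with a floor of 12 fragments, 3 units of 4. Both values take its 30 fragments in LNCKO butyrate as exact, so a counting limit would be lower.

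Of the other granule genes, Gzmb and Prf1 were closer between the butyrate libraries than between the control ones, whereas Nkg7 was not. Gzmb was 1.80-fold higher in LNCKO (1.45 to 2.24), Prf1 stood at 1.07 (0.679 to 1.69) and Nkg7 at 0.760 (0.695 to 0.830), the one member lower in LNCKO. Il2rb stood at 1.53 (1.32 to 1.77), Tbx21 at 1.64 (0.860 to 3.23) and Klrd1 at 1.04 (0.945 to 1.15).

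In WT macrophages, 3 of the 9 members with enough fragments were higher with butyrate and 6 were lower, near the background, where 42.0% of 13353 genes were higher. Nkg7, which was higher, was the one member of the 9 whose wider interval left out 1. One was at least 2-fold higher, against 4.39% of genes, and 2 were at least 2-fold lower, against 2.89%. The median log2 ratio was -0.47, beside -0.049 over all genes. Eomes stood at 0.419 times its control level (0.186 to 0.883), Cd3e at 0.443 (0.247 to 0.770) and Tbx21 at 0.508 (0.259 to 0.962). Each of these had a wider interval that held 1. Gzmb stood at 0.717 (0.567 to 0.905), Cd3g at 0.723 (0.470 to 1.11) and Il2rb at 0.859 (0.734 to 1.01).

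A further 3 members went the other way in WT. Prf1 was 2.13-fold higher with butyrate (1.17 to 4.02), on 38 fragments against 17, with a wider interval of 0.618 to 8.96. Nkg7 was 1.48-fold higher (1.35 to 1.63), and its wider interval, 1.22 to 1.80, left out 1. Klrd1 stood at 1.13 (1.01 to 1.26). Gzma, with 11 fragments over both libraries, was under the minimum of 20. With its 0 in WT butyrate set at the floor of 3 fragments, it stood at 0.260 times control. That value takes the 11 fragments of WT control as exact, so a counting limit would be higher. A floor of 12 fragments sets no bound there.

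In LNCKO macrophages, 2 of the 10 members were higher with butyrate, where 44.3% of 13252 genes were. One was at least 2-fold higher, against 3.34%, and 2 were at least 2-fold lower, against 1.93%. The median log2 ratio was -0.66, beside -0.019 over all genes. Prf1 stood at 0.382 times its control level (0.262 to 0.549) and Gzmb at 0.389 (0.335 to 0.452), with wider intervals of 0.170 to 0.805 and 0.285 to 0.527. Il2rb stood at 0.690 (0.612 to 0.777), and its wider interval, 0.541 to 0.878, also left out 1.

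Cd3g was 2.17-fold higher with butyrate in LNCKO (1.65 to 2.87, wider 1.25 to 3.93), and Cd3e, its partner in the receptor, stood at 0.887 (0.671 to 1.17). Eomes stood at 0.507 (0.318 to 0.798), Tbx21 at 0.549 (0.331 to 0.900) and Gzma at 0.582 (0.352 to 0.952), each with a wider interval that held 1. Klrd1 stood at 1.15 (1.04 to 1.28) and Nkg7 at 0.893 (0.812 to 0.982).

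**Figure D3:**
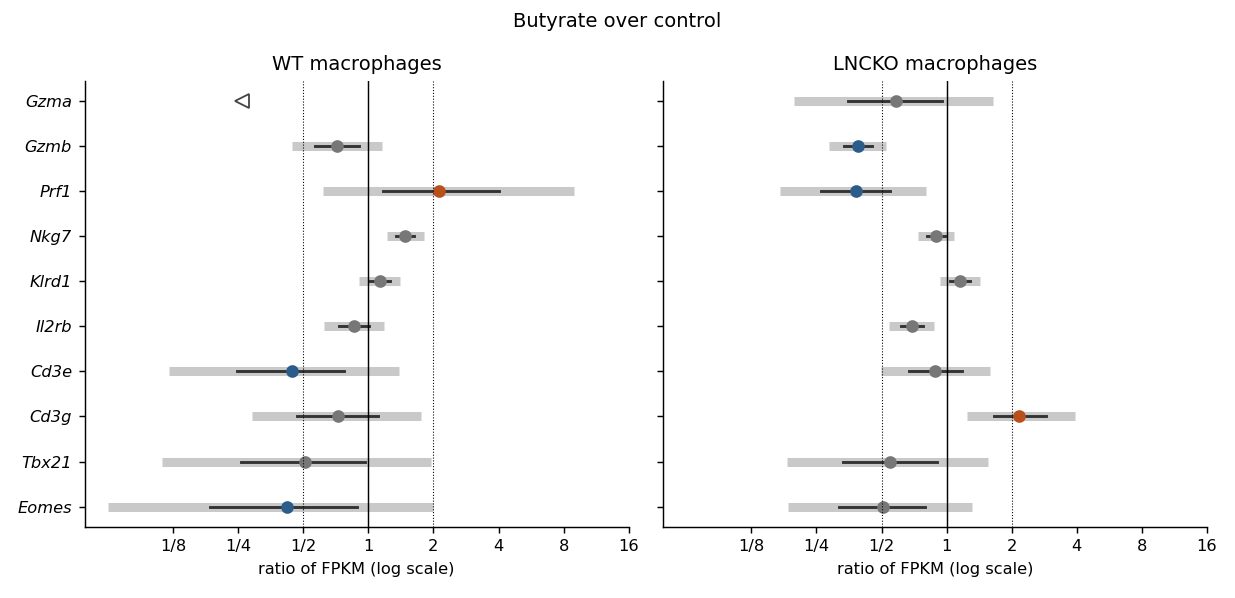
Ratio of butyrate to control FPKM (horizontal axis, log scale) for each member in WT and LNCKO macrophages, with 95% counting intervals as dark lines, intervals in units of 4 fragments as grey bars and dotted lines at 2-fold. The open triangle is the upper bound for Gzma, at 0 fragments in WT butyrate. Prf1 lay at 2.13 in WT and 0.382 in LNCKO, and Cd3g at 0.723 and 2.17.

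The butyrate ratio of a gene can be set between genotypes as the LNCKO ratio over the WT ratio, which uses all 4 libraries. Prf1 gave 0.179 (0.0858 to 0.368, wider 0.0302 to 0.719), Gzmb 0.543 (0.411 to 0.719, wider 0.307 to 0.972) and Nkg7 0.603 (0.526 to 0.690, wider 0.457 to 0.795). These 3 granule genes thus had the lower butyrate ratio in LNCKO. Gzma, the other granule member, was left out because it had 0 fragments in WT butyrate. It had 11 and 0 fragments in WT and 42 and 30 in LNCKO, control first. On those few fragments its butyrate ratio was the higher in LNCKO, so the granule genes did not all go the same way. Cd3g gave 3.00 (1.79 to 5.02, wider 1.10 to 9.72) and Cd3e 2.00 (1.07 to 3.84, wider 0.569 to 8.74), the higher ratio in LNCKO. Il2rb gave 0.803, Klrd1 1.02, Tbx21 1.08 and Eomes 1.21, and their wider intervals held 1. With 1 library a group, the difference between genotypes was not tested against variation between cultures.

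**Figure D4:**
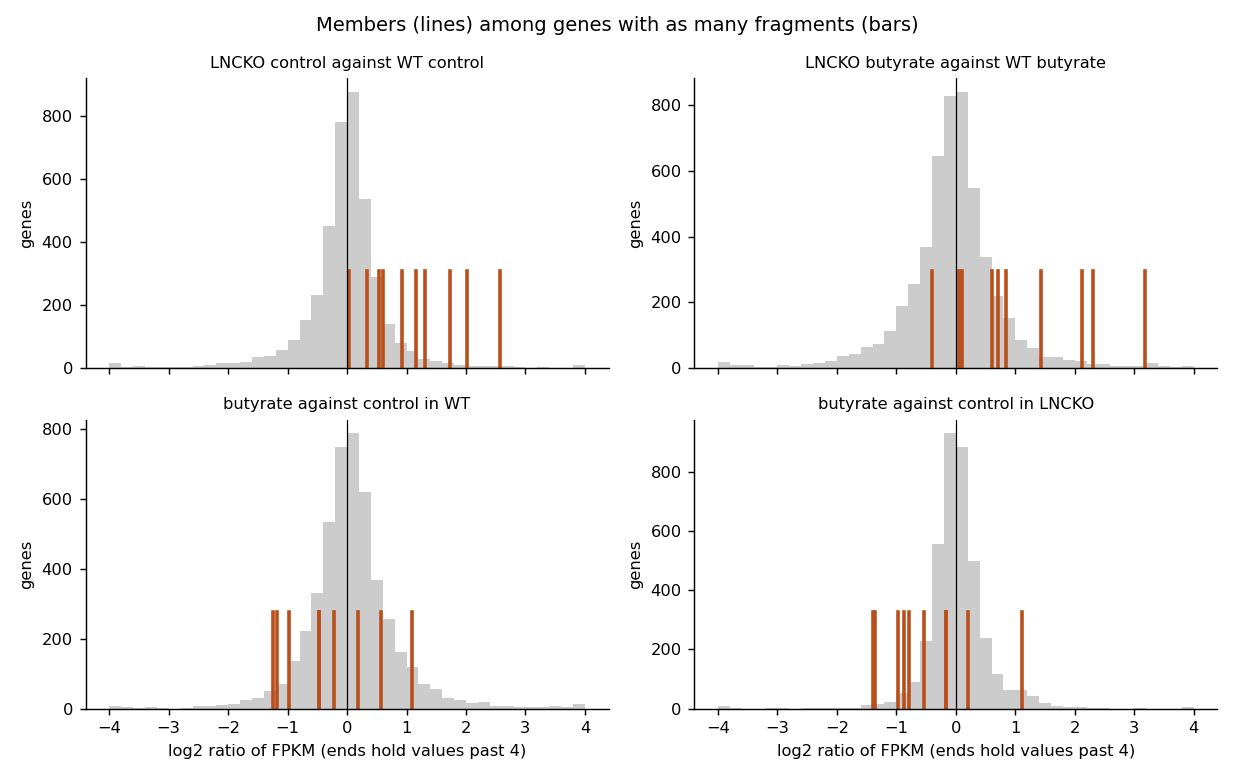
Histograms of the log2 ratio of FPKM (horizontal axis) over genes in the members' range of fragments, with the number of genes on the vertical axis, for the 4 comparisons. Vertical lines are members, with Gzma at its bound in the comparison of the butyrate libraries and left out of the WT butyrate panel, where it was under the minimum. The members' median was 1.05 for LNCKO over WT without butyrate and 0.78 with it, and -0.47 and -0.66 for butyrate in WT and LNCKO.

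Summed over the 10 members, there were 35.7 and 40.4 CPM in the WT libraries, control first, and 56.2 and 45.6 in the LNCKO ones. Nkg7 was the largest part of each sum. Without Nkg7 and Klrd1, a pair that was set aside after the values were seen, the sums were 12.3, 9.48, 29.3 and 18.6, or 2.39 times WT in LNCKO without butyrate and 1.96 times with it. Butyrate libraries then stood at 0.773 times control in WT and 0.636 times in LNCKO.

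Wider lists of related genes, which contain some of the members, were described in the same way, and their counts are to be read beside the shares of all genes given above. For LNCKO over WT, 54.5% of all genes were higher and 2.61% at least 2-fold higher without butyrate, and 58.0% and 3.26% with it. Of 18 T cell receptor and coreceptor genes, 15 were higher in LNCKO without butyrate and 3 were at least 2-fold higher, with a median log2 ratio of 0.54. The summed fragments of the list, led by its abundant genes such as Cd4 and Cd28, gave a ratio of 0.987 without butyrate and 0.991 with it. Cd3d, the delta subunit of the complex, was 2.91-fold higher, on 77 fragments against 28, and Thy1, a surface protein of T cells, was 2.08-fold higher. With butyrate, 13 of the 18 were higher in LNCKO and 6 at least 2-fold, with a median of 0.68. Beside Cd3e and Cd3g these were Cd3d, Cd247, Lat and Zap70, the last 3 coding for the zeta chain, an adaptor and a kinase of receptor signalling. Cd247 had 87 fragments in LNCKO butyrate and 7 in WT butyrate, an 11.2-fold ratio (wider interval 2.56 to 123). In WT its butyrate ratio was 0.123. Cd5, an inhibitory receptor on T cells, was 3.32-fold higher with butyrate in WT, whereas in LNCKO Cd3g was the one gene of the list past 2-fold. With butyrate, 8 of the 18 were higher in WT, with a median of -0.14, and 11 of the 18 in LNCKO, with a median of 0.066.

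Among 15 cytotoxic granule genes with enough fragments, 10 were higher in LNCKO without butyrate, 6 of them at least 2-fold, with a median of 0.081 and a summed ratio of 0.983. The share higher is near the 54.5% of all genes, and 3 of the 6 are members. Beside Prf1, Gzma and Gzmb these were Gzmc at 3.85-fold, Fasl at 2.75-fold and Ctsw at 2.54-fold. Fasl rested on 26 fragments against 10, and its wider interval, 0.564 to 20.4, held 1. Gzmc, a granzyme gene 24181 bases from Gzmb, had 42 and 43 fragments in WT control and butyrate and 153 and 47 in LNCKO control and butyrate. Like Gzmb and Prf1, it was lower with butyrate in LNCKO, at 0.250 times control (wider interval 0.118 to 0.491). These were the 3 genes of the list past 2-fold there, and 11 of 14 were lower, with a median of -0.20. Gzmk had 14 fragments in LNCKO control, and Gzmd, Gzmg and Gzmk had 0 in each of the other libraries. Srgn, which encodes the granule proteoglycan serglycin and is also made by macrophages, held an FPKM of 14.9 to 16.5 throughout.

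With butyrate, 7 of 15 granule genes were higher in LNCKO than in WT, the median was -0.0054 and the summed ratio was 0.924. Gzma, Gzmm and Ctsw were at least 2-fold higher, Gzmm on 25 fragments against 4. Gzme was lower, on 6 fragments against 66. In WT, 8 of 14 were higher with butyrate, with a median of 0.075, and Prf1 and Gzme were past 2-fold up and Gzmm down.

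NK receptor genes gave different pictures by count and by sum. Without butyrate, 10 of 14 were higher in LNCKO, against 54.5% of all genes, with a median of 0.25. At least 2-fold higher were 2 of them (Klra7 and Klrb1c), against 2.61%. The summed ratio was 0.899, the other way, but most of the sum was Tyrobp in every library. Tyrobp had 25982 of the list's 30763 fragments in WT control and 21214 of 26181 in LNCKO control. With butyrate, the median was 0.69 and the summed ratio 1.07. There 13 of 15 were higher and 7 at least 2-fold, against 58.0% and 3.26% of all genes. These 7 were Cd160, Klra1, Klra3, Klra7, Klrb1c, Klrc2 and Ncr1, receptors of NK cells that activate or inhibit killing. Klra3, with 94 fragments in WT butyrate and 320 in LNCKO butyrate, was 3.08-fold higher (wider interval 1.92 to 5.10), and Ncr1 rested on 10 against 24. Genes of the Klra family are near copies of each other, so the split of fragments among them is uncertain. In WT, Klra3, Klrb1c and Ncr1 stood at 0.439, 0.430 and 0.289 times control with butyrate. Over the list, 7 of 14 were higher with butyrate in WT, with a median of -0.032, and 9 of 15 in LNCKO, with a median of 0.11.

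Lymphocyte transcription factors differed little without butyrate, with 7 of 13 higher in LNCKO, a median of 0.067, and Eomes and Gata3 past 2-fold. Gata3 rested on 25 fragments against 11, and its wider interval, 0.504 to 16.1, held 1, as that of Eomes did. With butyrate, 12 of 13 were higher in LNCKO and 5 were past 2-fold, where 58.0% and 3.26% of all genes were, with a median of 0.39 and a summed ratio of 1.03. Lef1, a factor of Wnt signalling, had 539 and 216 fragments in WT control and butyrate and 621 and 738 in LNCKO control and butyrate. That made it 3.09-fold higher in LNCKO with butyrate (wider interval 2.27 to 4.26), and 0.382 times control with butyrate in WT. Bcl11b, a factor of T cell commitment, rested on 116 fragments in LNCKO butyrate and 19 in WT butyrate. In WT, 12 of 13 of these factors were lower with butyrate, with a median of -0.35, and 1 was higher, where 42.0% of all genes were higher. In LNCKO, 5 of 13 were higher with butyrate, with a median of -0.031, where 44.3% of all genes were.

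Cytokine and receptor genes showed medians near those of all genes without butyrate, 0.042 with 10 of 18 higher in LNCKO and a summed ratio of 1.01. Xcl1, a chemokine of NK and CD8+ T cells, had 11 and 12 fragments in WT control and butyrate and 34 and 27 in LNCKO control and butyrate. Ifng, the cytokine of activated NK and T cells, had 7, 0, 18 and 4. Ccl5, a chemokine that macrophages make as well, was abundant, at an FPKM of 81.2, 203, 85.4 and 92.9, 2.50-fold higher in the WT butyrate library than in WT control. With butyrate, 10 of 17 genes of the list were higher in LNCKO, with a median of 0.22 but a summed ratio of 0.706, Xcl1 past 2-fold up and Ccl5 and S1pr5 past 2-fold down. Butyrate left the list at medians of 0.056 in WT and 0.00096 in LNCKO, with 9 of 17 higher in each, and Ifng and Il12rb2 past 2-fold down in LNCKO.

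Markers of whole cell types were read for what else the cultures held. The 10 T cell markers summed to 59.8, 74.2, 63.3 and 70.9 CPM, in the order of libraries used above, with none of them at 0. Most of that sum was Cd28, at 1995 to 3410 fragments a library, and the sums did not order as the CD3 members did. The NK cell markers summed to 63.3, 70.5, 69.3 and 71.6, with Klra8 at 0 in WT control and Gzma at 0 in WT butyrate. Klrk1, which activated T cells and some myeloid cells also use, held 2005 to 2751 fragments and made up the bulk. Nkg7 and Klrd1, which are also in this list, came next. Ncr1, a defining NK gene, had 33, 10, 29 and 24 fragments, and Klre1 had 3, 8, 7 and 8.

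Other cell types left clearer marks. B cell markers summed to 1415, 1172, 1460 and 1478 CPM, plasmacytoid dendritic cell markers to 1016, 913, 948 and 1074, and innate lymphoid cell markers to 115, 96.8, 119 and 137. Mast cell and basophil markers summed to 208, 199, 267 and 264, higher in both LNCKO libraries, with Mcpt4 at 0 in all 4 and Tpsb2 at 0 in 3. The single genes were mixed. Without butyrate, 5 were higher in LNCKO and 2 lower (Hdc and Fcer1a), where 54.5% of all genes were higher. With butyrate, 5 were higher and 3 lower (Hdc, Kit and Tpsb2), where 58.0% of all genes were higher. The basophil protease gene Mcpt8 lies 173564 bases from Gzmb on chromosome 14. It had 1025, 544, 1676 and 1880 fragments, with both LNCKO libraries above both WT ones, as for Gzmb. Macrophage markers summed to 15832, 20908, 13732 and 10026, in the same order of libraries as Lyz2 alone, at 9842, 14329, 8033 and 4341 CPM. For LNCKO over WT with butyrate, 9 of these 10 markers were lower. Their summed ratio was 0.480, but their median log2 ratio was -0.20, so the sum mostly followed Lyz2. The part of any of these cell types in the members' differences was not tested.

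**Figure D5:**
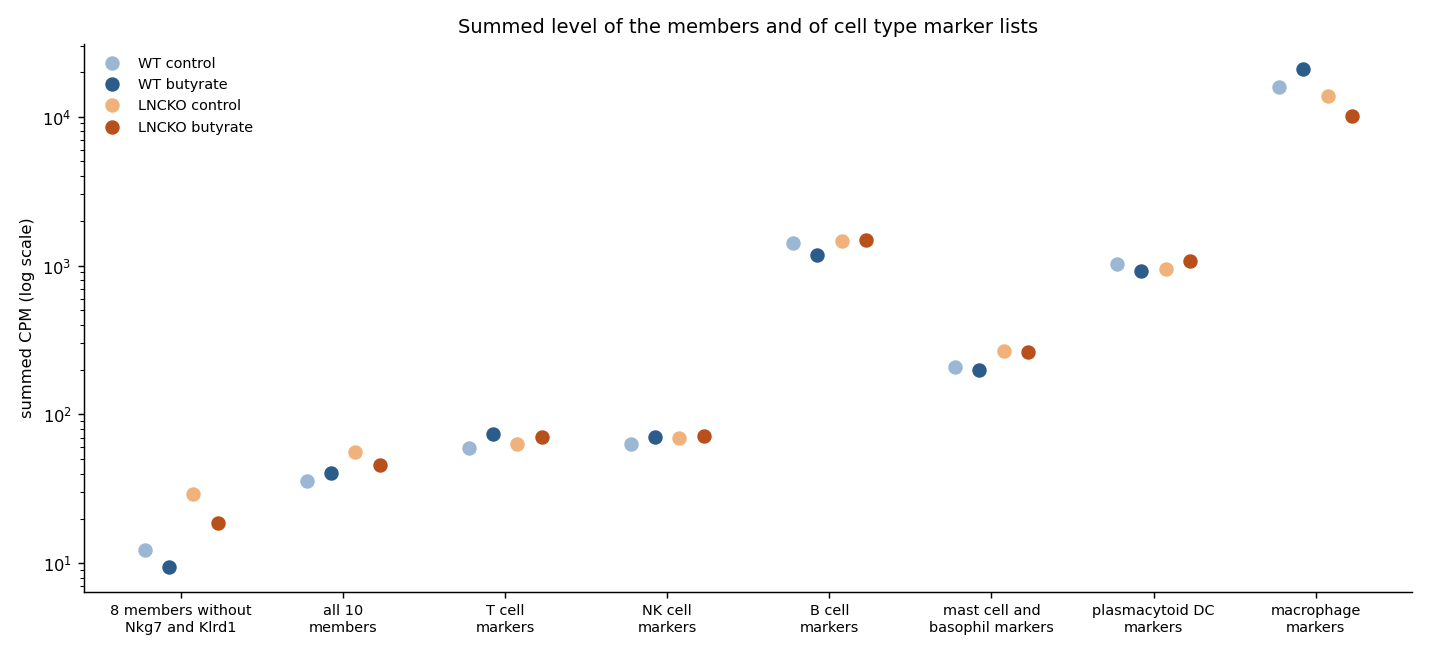
CPM summed over the members and over marker lists of cell types (vertical axis, log scale), 1 point for each of the 4 libraries. The 8 members without Nkg7 and Klrd1, a pair set aside after the values were seen, ran from 9.48 to 29.3, with LNCKO above WT. All 10 members ran from 35.7 to 56.2. T cell and NK cell marker sums lay within 59.8 to 74.2, and B cell marker sums within 1172 to 1478. The T cell sum was mostly Cd28. The NK cell sum was mostly Klrk1 and holds Nkg7 and Klrd1, so these sums are not set against the 8 members as a measure of cell content.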

How the data were processed

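RNA from 4 cultures of mouse BMDMs, 1 per group, was sequenced, and the authors deposited 1 table of FPKM per gene. Their processing notes name STAR 2.5.0c, Picard 1.126, bedtools 2.17.0, HTSeq 0.6.0 and DESeq2 3.0 and the build GRCm38, without parameters. Groups followed the sample titles. The FPKM values divided by 1 fragment on the GENCODE M21 gene span were whole in 98.6% of the 16342 genes matched to it, and on exon lengths in 7.48%, so fragments were taken on the span. Genes with at least 20 fragments over the 2 libraries compared were kept, and a gene was called past 2-fold. A library at 0 was set to a floor of 3 fragments. Intervals and floors cover counting error only. Genes named outside the members were those of the lists past 2-fold in any comparison and up to 3 others per list with the most fragments. Cell type markers, neighbours and genes at 0 were named beside the results they touch, after their values were seen. Members and lists were chosen with earlier results of these data known. Alternatives were pseudocounts of 0.1 and 1, other filters and 2 other scalings. The calculation was tested on simulated data with independent Poisson counts. Those do not clump as the real fragments did, so that test cannot show how well the intervals cover these data. Python 3.11.15, numpy 2.4.6, pandas 2.3.3 and scipy 1.17.1 were used.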

Additional observations from a re-analysis of the deposited data

Results flagged for a closer look

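In all, 3 members moved in opposite directions with butyrate in the genotypes, and this difference was not tested. Prf1 had a butyrate ratio in LNCKO that was 0.179 times the ratio in WT, Nkg7 0.603 times, and Cd3g 3.00 times. For each of them, 1 of the 2 directions was not clear of no change. Cd3g in WT stood at 0.723 (0.470 to 1.11), Prf1 in WT at 2.13 with a wider interval of 0.618 to 8.96 when 4 fragments count as 1 unit, and Nkg7 in LNCKO at 0.893 with a wider interval of 0.737 to 1.08. Each ratio rests on 1 library per group. Among these, Prf1 rests on 17 to 96 fragments a library and Cd3g on 41 to 197, while Nkg7 had 699 or more in each.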

How the results depend on the processing

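No paired analysis was possible because each group held 1 library and the result comes from no test. For the same reason no replicate could be left out. Of 144 recomputed values over the members, 108 kept direction and size, 35 moved and 1 reversed. A count was held to have kept its size within 1.5 times, a median within 0.2 (log2) and a sum within its counting interval. Both other scalings stayed within these limits, but with equal FPKM sums Tbx21 in WT and Eomes in LNCKO passed 2-fold, which made 3 members lower with butyrate in each genotype. Since most members had an FPKM far under 1, a pseudocount shrank their ratios by construction. The median log2 ratios with pseudocounts of 0.1 and 1 were 0.61 and 0.12 for LNCKO over WT without butyrate, 0.45 and 0.072 with it, -0.18 and -0.033 for butyrate in WT, and -0.29 and -0.071 in LNCKO. Members at least 2-fold higher in LNCKO then numbered 2 and 1 without butyrate, and 1 and 0 with it. For butyrate, 0 were past 2-fold in either direction, except 1 lower in LNCKO at a pseudocount of 0.1. With at least 100 fragments over the libraries, Gzma, Tbx21 and Eomes dropped out of LNCKO over WT, and Prf1 also with butyrate. Of those left, 3 were 2-fold higher in LNCKO without butyrate and 2 with it. All of those left were higher without butyrate, and 5 with it, all but Nkg7. With this filter 0 were past 2-fold with butyrate in WT, and the butyrate medians were -0.022 in WT and -0.17 in LNCKO, on fewer members. Against genes in the members' range of fragments, the share at least 2-fold higher was 6.19% for LNCKO over WT with butyrate and 8.22% for butyrate in WT. Without Nkg7 and Klrd1, an alternative chosen after seeing the data, the median for LNCKO over WT with butyrate was 1.14, and 1 member was higher with butyrate in each genotype. The log2 ratio of the sum was then 1.26 and 0.97 for LNCKO over WT without and with butyrate, -0.65 for butyrate in LNCKO, and -0.35 in WT, where the full sum had been higher with butyrate. Counting 4 fragments as 1 unit, also chosen after seeing the data, widened every interval. Depth limits Gzma, Tbx21 and Eomes most, at 53 or fewer fragments a library.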
